A study of Mus musculus with 12 samples.

Results

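The experiment described here asked what interleukin-13 (IL-13) changes in small-intestinal epithelium that is also given butyrate. Enteroids, cultures of intestinal epithelium grown from crypts, had been derived from the ileum of wild-type C57Bl/6 mice. The members are the 3 libraries of enteroids given 1 mM butyrate for 48 h together with 20 ng/mL IL-13 for 72 h, compared with the 3 libraries given 1 mM butyrate for 48 h alone, which makes 6 of the 12 libraries of the series. They were chosen by their labels and not by any measured value. The other 6 libraries are 3 of untreated enteroids and 3 given 20 ng/mL IL-13 for 72 h. They serve to compare the IL-13 effect with and without butyrate. All 12 libraries were fitted together, so the other 6 also shape the standard errors and adjusted p-values of the main comparison. All groups share the strain and the culture medium, and which agent was added first is not stated. Gene expression was measured by directional poly(A) RNA sequencing as read counts per gene. Nothing in the labels tells whether replicates were separate cultures or came from separate mice, so every p-value here reflects the spread among these samples alone, and that spread may be technical. Enteroids hold only epithelium, without the immune cells, stroma and microbes of the intact gut.

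IL-13 is a type 2 cytokine made in the gut mainly by innate lymphoid cells and T helper cells during worm infection and allergy. It binds a receptor of IL-4RA and IL-13RA1 on epithelial cells, JAK kinases phosphorylate STAT6, and STAT6 moves to the nucleus and drives target genes, among them inhibitors of the SOCS family that limit the signal. In the small intestine this response is known for the expansion of tuft and goblet cells and for the induction of gasdermin C genes. Butyrate, a short-chain fatty acid made by bacteria from fibre, is a fuel of epithelial cells and an inhibitor of histone deacetylases.

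The 3 butyrate libraries held 17006538 to 24294456 counts and the 3 libraries with both agents 13867982 to 15618074. Replicates of a group differed by more than counting noise (chi-square per degree of freedom between 10.5 and 35.8 for pairs within the 6 libraries), so no library was a repeat of another. On the first principal component, which held 58% of the variance of all 12 libraries, the butyrate libraries lay between -33.3 and -29.7 and the libraries with both agents between 54.1 and 65.1. Replicate 3 with both agents lay at 65.1 and its replicates at 54.1 and 57.3. Of the 6 libraries, 2 stood apart in the transcript Lars2, and other differences between them and their replicates were not tested. Lars2, a mitochondrial leucyl-tRNA synthetase gene, was at 5048 CPM (counts divided by the library size in units of 1000000, after scaling for library composition) in butyrate replicate 2 and 6983 in replicate 3 with both agents, against 793 to 1434 in the other 4. For the gene lists described, counts made without both libraries are given where they moved by over 1.5 times. The labelled cell type was borne out by its markers: the summed level of 10 epithelial markers such as Epcam and Cdh1 was 9828 to 11952 CPM under butyrate and 13239 to 13690 CPM with both agents. The summed immune markers were at 40.2 to 45.1 and 39.5 to 45.7 CPM, the mesenchymal ones at 8.16 to 9.94 and 6.17 to 6.93 CPM, the endothelial ones at 6.29 to 8.25 and 6.58 to 9.56 CPM, and the glial ones at 0.85 to 1.56 and 0.395 to 0.585 CPM. Of the 14 immune markers 7 were tested, and 3 were higher and 2 lower with IL-13 (1 lower without butyrate + IL-13 replicate 3, or without both Lars2-high libraries). Their log2 fold changes ran from -2.49 to 3.83. Of the 9 immune markers with counts in the series, 1 had no count in each butyrate library, against 0, 0 and 1 in replicates 1, 2 and 3 with both agents. The part of these cells in the results was not tested.

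IL-13 changed a large share of the expressed genes under butyrate. Of 13750 genes tested, 6564 passed an adjusted p of 0.05 (47.7%), of which 3144 were higher (22.9% of genes tested) and 3420 lower (24.9%) with IL-13. At least 2-fold changes were fewer, with 590 genes higher (4.29%) and 1184 lower (8.61%). The median log2 fold change over all genes tested was -0.04. The counts of list members given below are to be read against these shares. The lists were chosen with earlier results of these data known, so their counts describe the data and are no independent support. Without both Lars2-high libraries 5692 genes were called, of which 5223 were also called with all libraries. In 6935 genes (50.4%) the 3 libraries of each group did not overlap. In these bulk samples fewer cells of a type and less RNA per cell cannot be told apart.

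**Figure D1:**
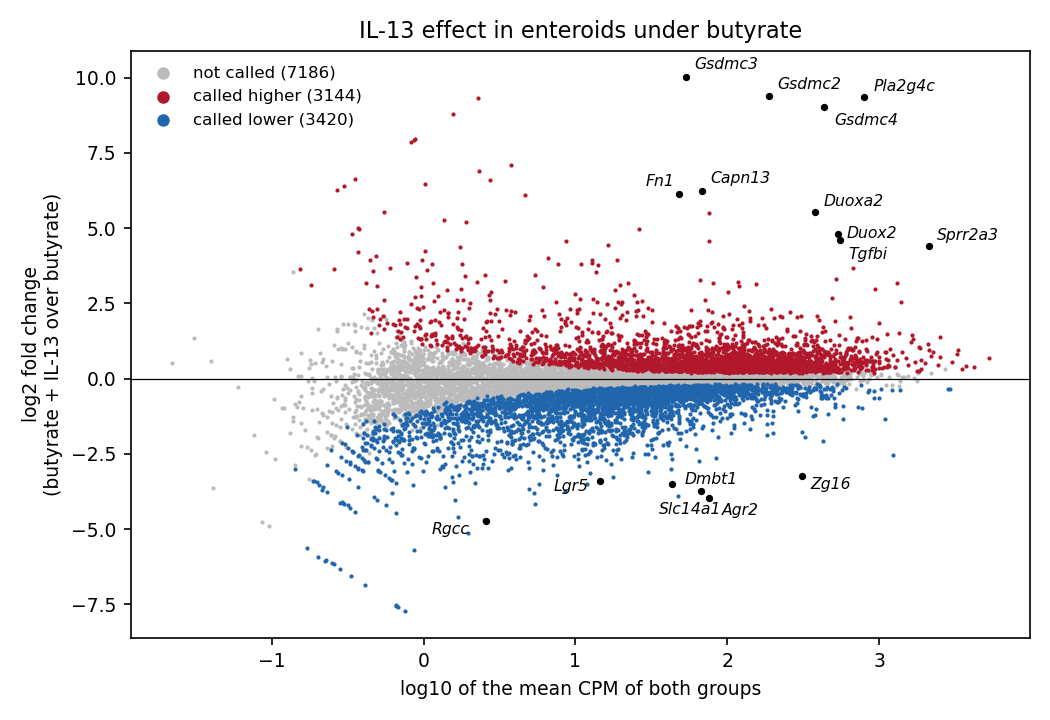
Each point is a gene, with its mean level over the butyrate and the butyrate + IL-13 libraries on the x axis (log10 CPM) and the log2 fold change of butyrate + IL-13 over butyrate on the y axis. Red marks the 3144 genes called higher, blue the 3420 called lower and grey the rest, and the black points are named genes, of which Gsdmc3 has the largest labelled rise, at 10.004.

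Genes of the IL-13 signal itself came first. Of the 15 listed receptor, kinase and feedback genes 13 were tested, and 9 were higher and 1 lower, and the median log2 fold change was 0.52. Socs1, which encodes a feedback inhibitor of JAK kinases, was at 1.80, 1.40 and 1.42 CPM in the 3 butyrate libraries and at 25.5, 26.04 and 20.4 CPM in the 3 with IL-13. Every library with IL-13 lay far above every butyrate library, and Socs1 rose by 3.94 ± 0.20 on the log2 scale (± standard error, adjusted p = 2.9e-11). Other feedback inhibitor genes, Socs2 (1.79 ± 0.11, adjusted p = 3.5e-10), Socs3 (0.78 ± 0.13, adjusted p = 5.4e-05) and Cish (1.82 ± 0.13, adjusted p = 1.8e-09), rose as well. Il4ra, the receptor chain shared with IL-4, was at 61.9, 63.5 and 78.3 CPM under butyrate and 131, 139 and 135 CPM with IL-13. It rose by 0.99 ± 0.09 (adjusted p = 7.4e-08), and the kinase gene Jak2 by 0.52 ± 0.09 (adjusted p = 7.3e-05). Stat6, the transcription factor of the pathway, did not pass the test: 245, 246 and 250 CPM against 234, 238 and 234 CPM, a log2 difference of -0.07 ± 0.07 (adjusted p = 0.40). The other receptor chain, Il13ra1, overlapped between the groups (99.2 to 139 against 133 to 168 CPM), and its small rise of 0.29 ± 0.11 (adjusted p = 0.042) was not called without butyrate replicate 1 (adjusted p = 0.067) or 3 (0.18), nor without butyrate + IL-13 replicate 1 (0.15) or 3 (0.050).

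The largest rises were in epithelial effector genes of the type 2 response. Of 31 listed effectors 21 were tested, 14 rose and 2 fell (1 without replicate 1 or 3 of either group), and their median log2 fold change was 1.99. The gasdermin C genes encode proteins that are cleaved to form pores in the plasma membrane, and Gsdmc2, Gsdmc3 and Gsdmc4 lie side by side on chromosome 15 (GRCm38; chr15:63824346-63835949, chr15:63858271-63869297 and chr15:63891265-63902936, minus strand). Gsdmc2 was at 0.157, 0.520 and 1.13 CPM under butyrate and at 425, 361 and 338 CPM with IL-13. Gsdmc4 went from 0.469, 1.61 and 3.23 CPM to 971, 879 and 743 CPM. The genes were almost silent in all 3 butyrate libraries and highest among them in replicate 3, while none of the libraries with IL-13 came near them. Fitted log2 fold changes were 9.40 ± 0.25 for Gsdmc2, 10.004 ± 0.30 for Gsdmc3 and 9.04 ± 0.30 for Gsdmc4 (adjusted p = 6.2e-15, 1.6e-14 and 1.1e-13). Because these copies resemble each other, the authors' counting could have split reads between them. The size of the fold rests on few butyrate reads (34, 6 and 100 counts over the 3 libraries): without butyrate replicate 3 it was 10.19, 11.82 and 9.79. These moves exceed the standard errors, which are derived from the test statistic and are too small for genes this near silence. Pla2g4c (chr7:13324655-13360672, plus strand), which encodes a cytosolic phospholipase A2, moved from 0.939, 2.13 and 4.59 CPM to 1930, 1598 and 1212 CPM, a rise of 9.36 ± 0.33 (adjusted p = 2.3e-13) that was 10.07 without the same library.

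Other genes of the cell death machinery moved by far less. Of 15 tested gasdermin and caspase genes, a list without the gasdermin C genes, 8 were higher and 4 lower, with a median of 0.22. Casp8, an initiator caspase, rose by 0.70 ± 0.07 (adjusted p = 3.1e-07), and Gsdmd, the pore former of inflammasome signalling, by 0.54 ± 0.09 (adjusted p = 4.3e-05). Pycard, the inflammasome adaptor, fell by 1.04 on the log2 scale (SE 0.11, adjusted p = 6.7e-07), and Gsdme fell by 1.16 (SE 0.16, adjusted p = 1.4e-05).

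The dual oxidase gene Duox2, whose product makes hydrogen peroxide at the cell surface, rose together with that of its maturation factor. Duox2 was at 38.5, 39.1 and 32.8 CPM under butyrate and 958, 1070 and 1073 CPM with IL-13, and Duoxa2, which brings DUOX2 to the surface, at 16.4, 13.6 and 18.6 against 715, 792 and 723 CPM. Neither gene had overlapping groups, which the naming rule requires of the most raised genes. The log2 fold changes were 4.81 ± 0.11 (adjusted p = 3.1e-16) and 5.52 ± 0.13 (adjusted p = 3.2e-16). Of the 8 tested NADPH oxidase genes, 3 rose, the third being Duoxa1 (5.49 ± 0.15, adjusted p = 8.0e-15), and 3 fell. Duoxa1 overlaps Duoxa2 on the opposite strand, and the use of strand in counting is not given, so reads in the stretch that both genes cover cannot be told apart. The small proline-rich gene Sprr2a3 rose from 192, 175 and 212 CPM to 4333, 3808 and 4030 CPM (4.39 ± 0.11, adjusted p = 3.3e-15), with near-identical neighbours that could share its reads. Clca1, a goblet cell protein that processes mucus, rose by 1.43 ± 0.12 (adjusted p = 1.4e-08), and Fut2, the fucosyltransferase of mucosal surfaces, from 13.4, 14.04 and 9.40 to 124, 118 and 119 CPM (3.29 ± 0.17, adjusted p = 3.3e-11). The chitinase-like gene Chil4 was not counted in any butyrate library and had 67 counts with IL-13, which is at least 35.9-fold higher, taking a floor of 3 counts over the butyrate group.

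STAT6 is known to bind the gapped palindrome TTCNNNNGAA, so the 250 bases upstream of the start sites of these genes are shown with it. The sequences are from RefSeq (GRCm38.p6), 5′ to 3′ on the strand of each gene, and capitals mark TTCNNNNGAA, which reads the same on both strands. Duox2 (chr2:122298228-122298477, minus strand) and Duoxa2 (chr2:122298650-122298899, plus strand) start 672 bases apart and are transcribed away from each other, and they are shown because both rose and neither window holds these letters. Sprr2a3 (chr3:92285054-92285303, plus strand) and Slc28a1 (chr7:81114549-81114798, plus strand), a raised nucleoside transporter gene, each hold a match, TTCTAAGGAA and TTCCACAGAA. The Sprr2a3 window follows the RefSeq start, whereas the deposited table places the gene further downstream, at chr3:92288566-92289247.
Duox2: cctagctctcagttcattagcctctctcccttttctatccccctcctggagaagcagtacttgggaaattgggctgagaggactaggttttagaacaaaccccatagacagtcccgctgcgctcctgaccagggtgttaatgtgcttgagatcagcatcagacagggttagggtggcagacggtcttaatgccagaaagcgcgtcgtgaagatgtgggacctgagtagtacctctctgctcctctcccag
Duoxa2: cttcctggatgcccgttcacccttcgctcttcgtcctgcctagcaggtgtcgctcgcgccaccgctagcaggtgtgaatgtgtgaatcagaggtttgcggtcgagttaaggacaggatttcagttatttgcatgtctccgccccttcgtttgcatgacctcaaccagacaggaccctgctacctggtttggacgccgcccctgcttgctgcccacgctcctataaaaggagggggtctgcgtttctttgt
Sprr2a3: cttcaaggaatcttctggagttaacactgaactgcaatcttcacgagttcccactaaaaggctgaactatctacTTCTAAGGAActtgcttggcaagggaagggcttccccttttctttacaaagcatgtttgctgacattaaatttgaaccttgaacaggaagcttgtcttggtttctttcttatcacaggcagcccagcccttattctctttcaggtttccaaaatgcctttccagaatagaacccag
Slc28a1: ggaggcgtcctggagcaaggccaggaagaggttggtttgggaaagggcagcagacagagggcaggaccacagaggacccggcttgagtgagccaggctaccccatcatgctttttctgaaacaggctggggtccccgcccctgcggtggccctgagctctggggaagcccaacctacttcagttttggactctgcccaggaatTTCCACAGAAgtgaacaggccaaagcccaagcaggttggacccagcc
The effectors and the 15 most raised genes make 36 genes. Not all of them were raised, as the effectors include 6 too low to test, 5 not called and 2 lower. Of the 36, 23 matched a RefSeq symbol with 27 start sites, and 5 of these windows held the motif. Of the 5, 3 lie upstream of the near-identical copies Sprr2a1, Sprr2a2 and Sprr2a3 and are not independent of each other. Over all 32851 start sites the share was 5.85%, over those of genes tested 4.52%, over those of genes called higher at least 2-fold 6.34%, and over those called lower at least 2-fold 5.38%. A match describes letters and not a bound site.

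Beyond the effectors, the 15 most raised genes by the naming rule held matrix and adhesion genes, transporters and enzymes. Tgfbi, a secreted matrix protein that binds integrins, was at 41.1, 42.8 and 46.8 CPM under butyrate and at 1111, 1056 and 999 CPM with IL-13. The rise was 4.60 ± 0.09 (adjusted p = 1.3e-16), and the naming rule admits only genes whose groups do not overlap. Fn1, which encodes fibronectin, rose by 6.13 ± 0.21 (adjusted p = 9.6e-14), from 0.793 to 1.77 CPM up to 74.9 to 106 CPM. Capn13, a calpain protease gene, rose by 6.23 ± 0.14 (adjusted p = 3.1e-16), Me1, the cytosolic malic enzyme, by 4.56 ± 0.16 (adjusted p = 1.5e-13), and Car4, a carbonic anhydrase of the brush border, by 4.98 ± 0.22 (adjusted p = 4.2e-12). At the other end, the 15 genes that fell most included Lgr5, Zg16, Agr2, Slc14a1, Timeless and Myb, which are taken up with their groups.

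**Figure D2:**
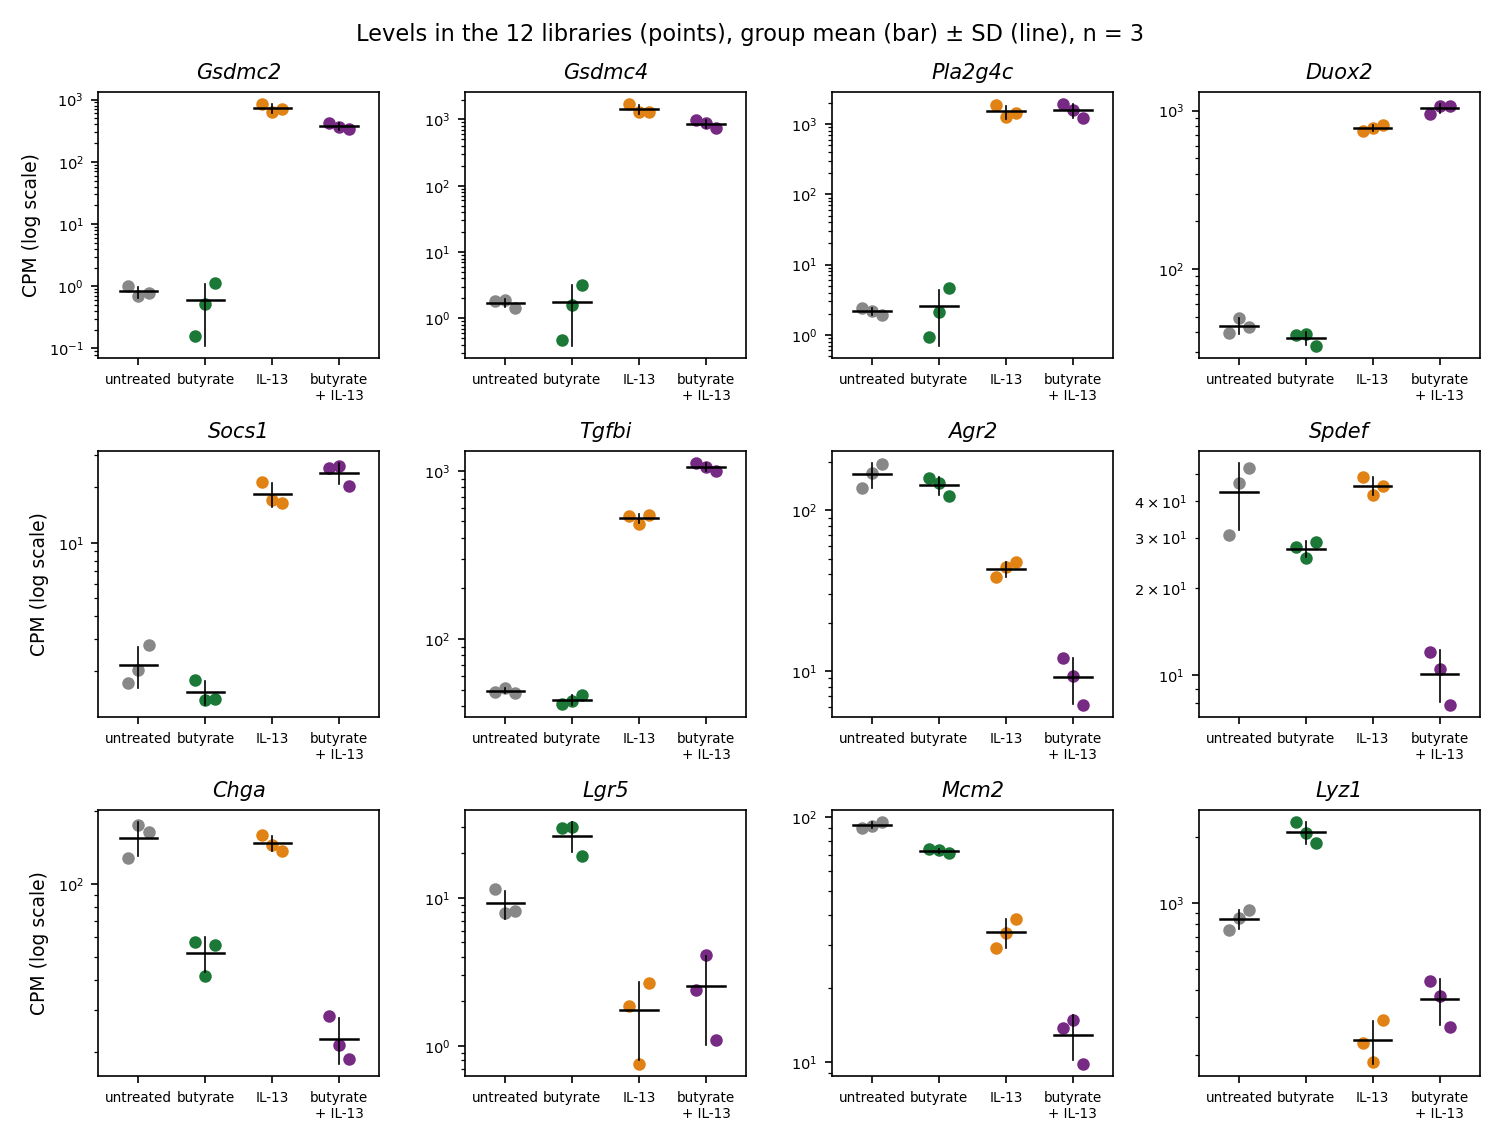
Levels of 12 genes in CPM on log y axes, with a point for each of the 3 libraries of a group (untreated, butyrate, IL-13, butyrate + IL-13), a bar for the mean and a vertical line for ± SD. Gsdmc2, Gsdmc4, Pla2g4c, Duox2, Socs1 and Tgfbi are high in both IL-13 groups, while Agr2, Spdef and Chga are lowest with both agents.

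Tuft cells, the chemosensory cells that start the type 2 response, had a mixed record. Of 40 listed identity genes 34 were tested, 14 rose and 4 fell, with a median of 0.77. Lrmp, a tuft cell marker, went from 0.391, 0.312 and 0.227 to 2.37, 2.87 and 1.32 CPM (2.74 ± 0.43, adjusted p = 4.6e-05). Gnb3, a G protein subunit of taste signalling, had 1 count in the butyrate group and 28 with IL-13, a ratio of 45.0 with a 95% exact binomial interval of 7.44 to 1840 that covers counting error only. These levels were low throughout. The calls of the genes most used to define the cell type did not hold under every alternative. Dclk1 rose from 4.97, 3.07 and 1.08 to 6.01, 6.13 and 5.71 CPM (0.91 ± 0.31, adjusted p = 0.021). It was not called without butyrate replicate 2 (adjusted p = 0.066), without butyrate + IL-13 replicate 2 (0.050) or without both Lars2-high libraries (0.094). Nor was it called without a filter (0.05) or in a fit of these 6 libraries only (0.063). In these fits its log2 fold change stayed at 0.89 to 0.95, while without butyrate replicate 1 it was 1.5. Pou2f3, the tuft cell master regulator, overlapped between the groups (0.0566 to 0.520 against 0.439 to 1.42 CPM), rose by 1.83 ± 0.54 (adjusted p = 0.0096), was not called without butyrate + IL-13 replicate 1 (adjusted p = 0.053), and rose by 2.56 without butyrate replicate 2 and by 2.93 without both Lars2-high libraries. Trpm5, the cation channel of taste signalling, overlapped as well (1.77 to 2.21 against 2.19 to 4.82 CPM, 0.94 ± 0.30, adjusted p = 0.015) and was not called without butyrate replicate 1 (adjusted p = 0.051) or without butyrate + IL-13 replicate 1 (0.078) or 2 (0.054). The tuft count itself was 6 when genes under a mean of 50 counts were left out and 9 in a fit of these 6 libraries only. Members that fell included Nrgn, by 2.49 (SE 0.29, adjusted p = 1.1e-06), and Cd24a, by 0.82 (SE 0.10, adjusted p = 3.9e-06), the latter a surface protein found in several secretory cell types.

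Goblet cell genes fell more often than they rose. Of 36 tested members 19 were lower and 9 higher, against 24.9% lower and 22.9% higher over all genes, with a median of -0.42. Agr2, a disulfide isomerase needed to fold mucin, was at 160, 148 and 123 CPM under butyrate and 12.02, 9.24 and 6.14 CPM with IL-13. Atoh1, the transcription factor that commits cells to secretory fates, was at 40.6, 34.8 and 34.9 against 11.47, 9.0001 and 11.2 CPM. Spdef, which drives goblet maturation, was at 27.9, 25.4 and 29.1 against 12.02, 10.5 and 7.90 CPM. In all 3 genes every library with IL-13 was below every butyrate library, which the naming rule required of Agr2. The 3 genes fell by 3.98 (SE 0.19, adjusted p = 1.0e-11), 1.80 (SE 0.14, adjusted p = 7.2e-09) and 1.44 (SE 0.18, adjusted p = 2.9e-06). Zg16, a secreted lectin of mucus, went from 680, 469 and 535 CPM to 45.9, 38.6 and 93.0 CPM, with a log2 fold change of -3.24 ± 0.32 (adjusted p = 2.9e-06) that was -3.85 without both Lars2-high libraries. Muc2, the main gel-forming mucin, fell by 0.83 (SE 0.22, adjusted p = 0.0043) and was not called without both Lars2-high libraries (adjusted p = 0.068). Against these, Clca1 and Fut2 rose as given above, and Klf4, a factor of goblet and surface cell differentiation, rose from 65.7, 59.2 and 68.3 to 171, 178 and 219 CPM (1.56 ± 0.10, adjusted p = 5.5e-10).

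Paneth cells, the crypt-base cells that secrete antimicrobial proteins, showed lower levels of their main products. Of 26 listed genes 18 were tested, 11 fell and 5 rose (3 without butyrate replicate 2), with a median of -0.89. Lyz1, the Paneth lysozyme, was at 2343, 2084 and 1875 CPM under butyrate and at 441, 376 and 271 CPM with IL-13. It fell by 2.53 (SE 0.17, adjusted p = 1.0e-09), and Mmp7, the protease that activates alpha-defensins, fell by 2.63 (SE 0.20, adjusted p = 6.8e-09). The alpha-defensin gene Defa30 fell by 1.53 (SE 0.12, adjusted p = 1.4e-08), and Defa29 by 4.69 (SE 0.52, adjusted p = 7.0e-07), with reads that could be shared among the many like copies of this family. Ang4, an antimicrobial ribonuclease, went the other way, from 708, 566 and 521 to 1045, 878 and 725 CPM (0.56 ± 0.15, adjusted p = 0.0050), although it was not called without butyrate replicate 2 (adjusted p = 0.057) or 3 (0.064).

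Enteroendocrine cells make gut hormones, and 20 of 37 tested genes of this lineage were lower and 2 higher, with a median of -0.87. Neurog3, the factor that starts the lineage, was at 2.62, 3.02 and 2.21 CPM under butyrate and 0.237, 0.717 and 0.366 CPM with IL-13 (-2.56 ± 0.37, adjusted p = 1.6e-05). The granins stored with hormones fell too. Chga went from 57.5, 41.6 and 56.0 to 28.3, 21.5 and 18.7 CPM (-1.18 ± 0.15, adjusted p = 5.3e-06), and Chgb from 447, 380 and 360 to 246, 179 and 133 CPM (-1.09 ± 0.16, adjusted p = 2.1e-05). The groups did not overlap for any of these genes. Of the members that rose, the prohormone-trimming carboxypeptidase gene Cpe (2.41 ± 0.09, adjusted p = 8.4e-13) is known from other cell types too.

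Stem cell genes and targets of Wnt signalling, which maintains the crypt base, fell in 15 of 27 tested members and rose in 4, with a median of -0.56. Lgr5, the receptor that marks crypt-base stem cells, was at 29.7, 30.1 and 19.3 CPM under butyrate and 2.37, 4.14 and 1.10 CPM with IL-13, a fall of 3.39 on the log2 scale (SE 0.33, adjusted p = 1.9e-07). Axin2, a feedback target of Wnt, fell by 1.73 (SE 0.12, adjusted p = 2.3e-09), Olfm4 by 1.67 (SE 0.25, adjusted p = 2.2e-05), the urea transporter Slc14a1 by 3.72 (SE 0.23, adjusted p = 6.1e-10) and Myb, a transcription factor of proliferating crypt cells outside the list, by 3.28 (SE 0.19, adjusted p = 2.3e-10). Notum, which encodes a secreted enzyme that inactivates Wnt ligands, rose from 8.61, 8.06 and 7.59 to 25.8, 29.0 and 24.6 CPM (1.71 ± 0.15, adjusted p = 3.6e-08). Of 13 tested Notch genes, 7 fell and 2 rose (1 without butyrate replicate 2, without butyrate + IL-13 replicate 2 or without both Lars2-high libraries), against 24.9% and 22.9% over all genes. The ligand gene Dll1 rose by 1.10 ± 0.11 (adjusted p = 1.2e-07), and the Notch target Hes1 fell by 0.46 (SE 0.08, adjusted p = 0.00023).

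Proliferation genes fell without exception among those listed. All 33 DNA replication genes were lower, with a median of -1.91, and all 31 mitosis genes, with a median of -1.60, where 24.9% of all genes tested were lower. Without both Lars2-high libraries 32 of the 33 and all 31 were called lower. Mcm2, a subunit of the replicative helicase, was at 74.4, 73.2 and 71.5 CPM under butyrate and 13.8, 14.9 and 9.80 CPM with IL-13, and fell by 2.51 (SE 0.13, adjusted p = 3.9e-11). Mki67, the proliferation marker, went from 294, 319 and 247 to 73.2, 81.9 and 81.7 CPM and fell by 1.86 (SE 0.14, adjusted p = 5.2e-09). Timeless, a replication fork protein gene outside these lists, fell by 3.20 (SE 0.21, adjusted p = 7.3e-10). Chaf1a, a chromatin assembly factor, fell by 2.22 (SE 0.11), the mitotic kinase gene Aurkb by 2.09 (SE 0.12) and the mitotic transcription factor gene Foxm1 by 2.35 (SE 0.16). Ribosome biogenesis genes, which follow growth, were lower in 25 of 33 and higher in none, with a median of -0.58. Without both Lars2-high libraries 22 were lower and 1 higher (median -0.43), and 1 was higher without butyrate + IL-13 replicate 3. Among them were Gar1 (-1.25 ± 0.11, adjusted p = 2.8e-08) and Nop56 (-1.16 ± 0.12, adjusted p = 2.0e-07), proteins of small nucleolar ribonucleoproteins.

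The replication gene Mcm6 fell from 75.4, 72.0 and 75.0 to 13.1, 13.9 and 8.41 CPM (-2.66 ± 0.15, adjusted p = 8.5e-11). The 250 bases upstream of its start (RefSeq, GRCm38.p6, chr1:128359706-128359955, minus strand) are shown because they hold 2 copies of TTTGGCGC, which together with TTTCCCGC was searched on both strands as words that E2F factors of the cell cycle are known to bind. Capitals mark the words.
Mcm6: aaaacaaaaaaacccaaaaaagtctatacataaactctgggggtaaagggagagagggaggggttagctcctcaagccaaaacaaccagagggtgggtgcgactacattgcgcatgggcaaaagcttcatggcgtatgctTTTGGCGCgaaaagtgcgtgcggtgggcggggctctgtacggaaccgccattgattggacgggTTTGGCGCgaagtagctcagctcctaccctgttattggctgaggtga
Of the 33 replication genes 27 matched, with 33 start sites, and 5 of these windows (15.2%) held either word, as did 0 of 28 windows of the mitosis genes. The share was 2.28% for genes tested and 1.30% for all start sites. For genes called lower at least 2-fold it was 3.27%, and for those called higher at least 2-fold 1.58%.

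In a joint list of cell cycle inhibitors and p53 targets, more genes rose than fell. Of 29 tested genes that encode cyclin-dependent kinase inhibitors or are targets of p53, 17 were higher and 5 lower, against 22.9% and 24.9% over all genes, with a median of 0.34. Cdkn1a, which encodes p21, went from 698, 659 and 728 to 1968, 2038 and 1978 CPM (1.52 ± 0.08, adjusted p = 2.4e-11), and Cdkn2b, which encodes p15, from 248, 211 and 291 to 964, 1029 and 1095 CPM (2.04 ± 0.10, adjusted p = 2.5e-11). Gdf15, a stress-induced hormone of the TGF-beta family, rose by 1.96 ± 0.14 (adjusted p = 2.3e-09). The inhibitor Cdkn2c fell by 1.47 (SE 0.11, adjusted p = 9.2e-09). In the unfolded protein response list 13 of 27 were higher and 4 lower, with a median of 0.11 and a lowest value of -1.33. Without both Lars2-high libraries 12 were higher and 5 lower (median 0.03). Among those that rose were the integrated stress response genes Atf4 (0.87 ± 0.07, adjusted p = 3.1e-08), Ddit3 (1.28 ± 0.10, adjusted p = 1.1e-08), Atf3 (1.34 ± 0.10, adjusted p = 7.2e-09) and Trib3 (1.49 ± 0.12, adjusted p = 1.5e-08).

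**Figure D3:**
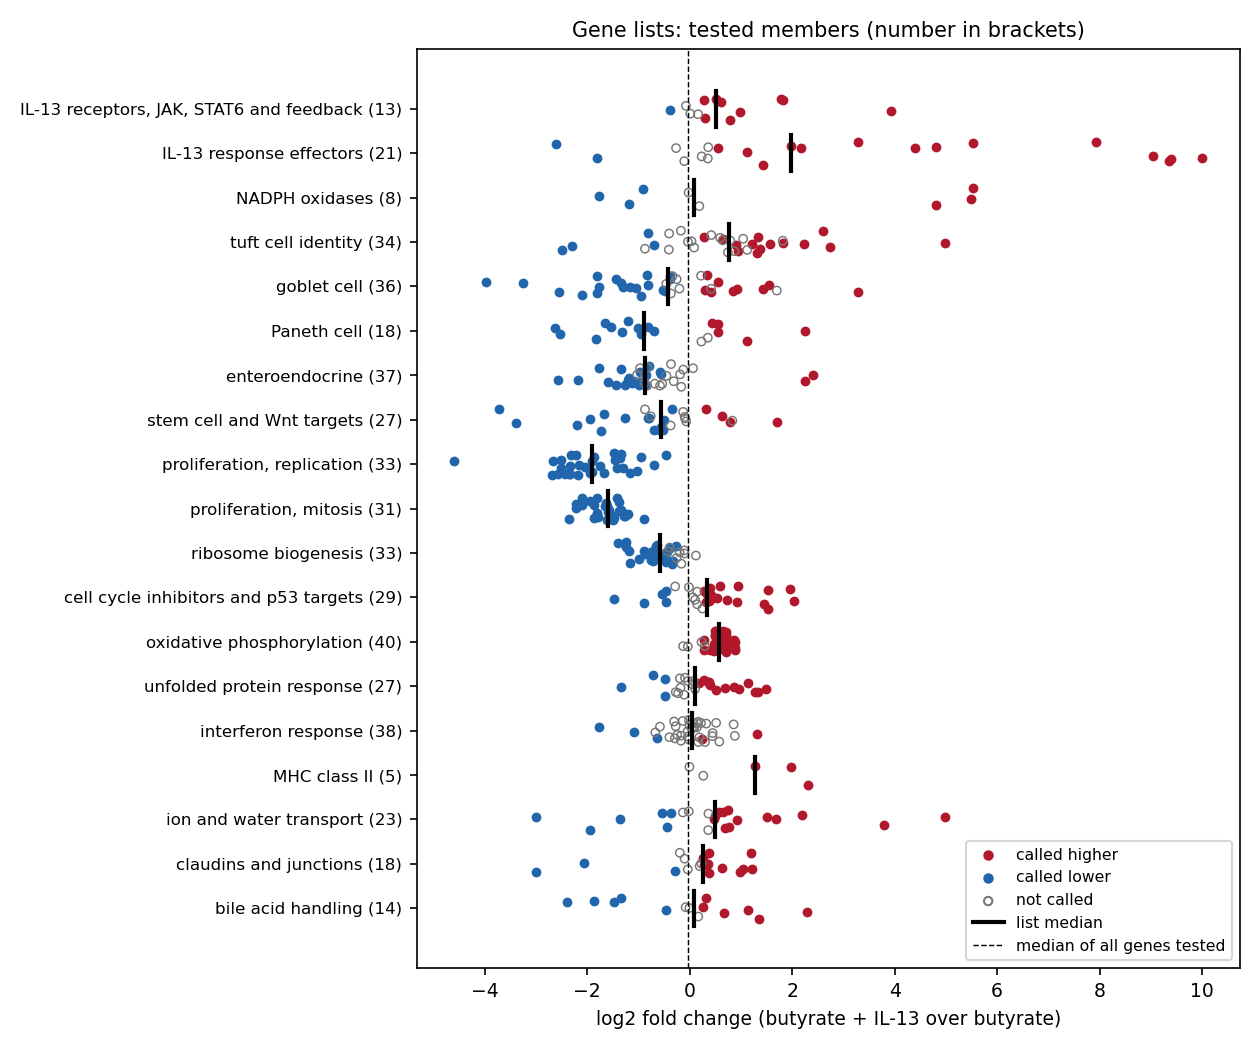
Each point is a tested member of a gene list, placed by its log2 fold change of butyrate + IL-13 over butyrate on the x axis, with lists on the y axis and the number tested in brackets. Filled points were called higher (red) or lower (blue), open points were not called, the thick bar is the list median and the dashed line the median of all genes tested (-0.04). The replication and mitosis lists lie wholly to the left of it.

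Mitochondrial energy genes rose as a group. Of 40 tested subunits of oxidative phosphorylation, 36 were higher and none lower, with a median of 0.57, against 22.9% higher over all genes. Atp5b, a subunit of ATP synthase, rose from 1922, 1822 and 1986 to 3123, 3055 and 3158 CPM (0.70 ± 0.07, adjusted p = 1.7e-07), and Sdhb, a subunit of succinate dehydrogenase, by 0.87 ± 0.08 (adjusted p = 5.7e-08). In fatty acid oxidation and ketone metabolism 13 of 27 were higher and 7 lower, and Oxct1, which lets cells burn ketone bodies, rose by 1.29 ± 0.09 (adjusted p = 2.9e-09). Among genes that carry or sense butyrate or encode histone deacetylases, 3 of 19 were higher and 7 lower, so that the share called was near the 47.7% over all genes. The lactate transporter Slc16a3 (1.24 ± 0.13, adjusted p = 2.6e-07) and Bsg, the chaperone of such transporters (0.88 ± 0.09, adjusted p = 1.8e-07), rose, and Hdac7 (-1.38 ± 0.18, adjusted p = 3.8e-06) and Hdac5 (-0.88 ± 0.14, adjusted p = 3.8e-05) fell.

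Genes of absorption by enterocytes changed in both directions. Of 23 tested peptidase and amino acid transporter genes 16 were higher and 6 lower, among them the peptide transporter Slc15a1 (2.03 ± 0.19, adjusted p = 8.8e-08) and the neutral amino acid transporter Slc6a19 (1.85 ± 0.16, adjusted p = 3.5e-08). Sugar genes split. The glucose transporters Slc2a1 (1.71 ± 0.08, adjusted p = 2.1e-11) and Slc5a1 (0.81 ± 0.09, adjusted p = 4.6e-07) rose, while lactase, Lct (-1.66 ± 0.19, adjusted p = 1.5e-06), and the glucose-6-phosphatase G6pc (-2.77 ± 0.22, adjusted p = 8.6e-09) fell, in a list with 4 of 14 higher and 7 lower. Of 24 lipid uptake genes 10 were higher and 7 lower, with Apoa4, an apolipoprotein of chylomicrons, up by 0.93 ± 0.17 (adjusted p = 0.00020) and Fabp2, the intestinal fatty acid binding protein, down from 32.0, 29.8 and 32.2 to 6.09, 4.70 and 7.46 CPM (-2.36 ± 0.14, adjusted p = 3.6e-10). Alpi, the alkaline phosphatase of mature enterocytes, overlapped between the groups (358 to 569 against 351 to 559 CPM, -0.05 ± 0.16, adjusted p = 0.82), but was called lower without both Lars2-high libraries (-0.42, adjusted p = 0.011).

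Of 20 tested genes of nucleotide and nucleoside handling at the villus tip, 8 were higher and 4 lower (9 and 7 without both Lars2-high libraries). Nt5e, the ectoenzyme CD73 that makes adenosine at the villus tip, rose from 76.5, 65.5 and 57.7 to 305, 229 and 277 CPM (2.02 ± 0.12, adjusted p = 1.6e-10). Slc28a1, the concentrative nucleoside transporter, rose from 0.0391, 0.260 and 0.113 to 11.2, 9.24 and 7.24 CPM (6.09 ± 0.41, adjusted p = 1.3e-09), and by 6.91 without butyrate replicate 2 and 7.06 without both Lars2-high libraries. The equilibrative transporter Slc29a1 fell by 1.68 (SE 0.14, adjusted p = 2.1e-08). Bile acid genes, an ileal function, were higher in 6 of 14 and lower in 5. The basolateral exporter subunit genes Slc51a (1.35 ± 0.10, adjusted p = 7.0e-09) and Slc51b (2.29 ± 0.12, adjusted p = 7.7e-11) rose, while the apical uptake transporter Slc10a2 went from 11.03, 9.88 and 7.59 to 4.03, 2.87 and 4.39 CPM (-1.34 ± 0.23, adjusted p = 9.6e-05).

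Ion and water transport genes were higher in 13 of 23 and lower in 6. The sodium-proton exchanger Slc9a3, which absorbs sodium, rose from 85.2, 84.0 and 109 to 393, 441 and 444 CPM (2.20 ± 0.10, adjusted p = 7.3e-12), and Slc12a2, the cotransporter that loads crypt cells with chloride for secretion, fell from 517, 615 and 418 to 148, 151 and 104 CPM (-1.94 ± 0.14, adjusted p = 2.8e-09). The water channels differed among themselves: Aqp7 rose by 3.79 ± 0.18 (adjusted p = 1.2e-11) and Aqp1 fell by 2.99 (SE 0.14, adjusted p = 1.3e-11). Of 18 junction genes 10 were higher and 3 lower. Cldn2, the pore-forming claudin of crypts, fell from 688, 698 and 681 to 204, 164 and 128 CPM (-2.06 ± 0.13, adjusted p = 3.8e-10), and Cldn4, a sealing claudin of surface cells, rose by 1.23 ± 0.10 (adjusted p = 1.9e-08).

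Immune and defence genes of the epithelium did not move as a block. Of 38 tested interferon response genes 2 were higher and 3 lower, against 47.7% called over all genes. The higher count was 1 without butyrate replicate 1 or without both Lars2-high libraries, 4 with RLE scaling and 5 without butyrate + IL-13 replicate 1. A fit of these 6 libraries only gave 1 higher and 5 lower. Oasl1 rose by 1.32 ± 0.14 (adjusted p = 3.6e-07), Ifitm3 fell by 1.76 (SE 0.20, adjusted p = 9.1e-07), and Oas3 was at 41.8 to 53.8 CPM under butyrate and 29.0 to 55.5 CPM with IL-13 (-0.13 ± 0.23, adjusted p = 0.67). Antigen presentation genes were higher in 3 of 5 tested class II members, led by Cd74, the invariant chain, at 2.46, 3.59 and 3.23 against 15.03, 18.6 and 12.1 CPM (2.31 ± 0.26, adjusted p = 1.0e-06), and H2-Eb1 (1.99 ± 0.24, adjusted p = 2.4e-06). The summed immune markers given above overlapped between the groups, but 3 of their tested members were higher and 2 lower. Ptprc, the pan-leukocyte gene, was too low to be tested. Which cells carried the class II genes was not tested. Class I genes were higher in 9 of 17 and lower in 1, counts of 4 and 3 without both Lars2-high libraries. The lower count was 3 without butyrate replicate 2 and 2 without butyrate + IL-13 replicate 3, with the replicate block or in a fit of these 6 libraries only. Dmbt1, a secreted scavenger of bacteria, fell from 62.3, 83.4 and 92.0 to 9.09, 6.05 and 5.71 CPM (-3.51 ± 0.25, adjusted p = 3.7e-09), Reg3g, a bactericidal lectin, fell by 2.19 (SE 0.22, adjusted p = 2.8e-07), and the acute-phase gene Saa1 rose by 3.44 ± 0.37 (adjusted p = 5.7e-07). The chemokine gene Ccl28 fell by 1.60 (SE 0.15, adjusted p = 9.9e-08). Areg, an EGF receptor ligand of tissue repair, rose from 418, 389 and 405 to 1072, 994 and 1033 CPM (1.35 ± 0.07, adjusted p = 7.7e-11).

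The same change was then read in enteroids without butyrate, as IL-13 over untreated, which shares no library with the comparison above. There 5977 genes were called (43.5%), 2997 higher (21.8%) and 2980 lower (21.7%). The larger count with butyrate did not hold in a fit of the groups compared alone (5332 with and 7160 without butyrate) or without both Lars2-high libraries (5692 and 6672). Of all genes tested, 4841 genes were called in the same direction in both settings, 73.8% of those called with butyrate and 81.0% of those called without, with 12 called in opposite directions. Across the 13750 genes the log2 fold changes correlated with r = 0.826, a description over genes that come from the same 12 libraries. Of the genes called in both in 1 direction, 63.2% had the larger absolute change with butyrate, with medians of 0.68 and 0.62. This share is from the main fit and was not computed under the alternatives. Replicate pairs differed more in the groups with butyrate (chi-square per degree of freedom 10.5 to 35.8) than in the others (3.82 to 9.86), and the part of this in the share was not tested. The test of the difference itself, an interaction term over all 4 groups, called 119 genes (0.865%), 35 positive and 84 negative. Leaving out untreated replicate 2 gave 55 calls, butyrate replicate 1 gave 56, butyrate replicate 3 gave 213, and DESeq2 on all libraries gave 255. Leaving out butyrate + IL-13 replicate 1 or 3 gave 182 and 70, IL-13 replicate 1, 2 or 3 gave 68, 64 and 70, and untreated replicate 1 or 3 gave 76 and 69. Of the 119, 39 kept their call under every alternative run, 12 positive and 27 negative. Among the 16 genes with the largest interactions by the naming rule 9 did so, and the genes below are those 9 and members of the lists described above.

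**Figure D4:**
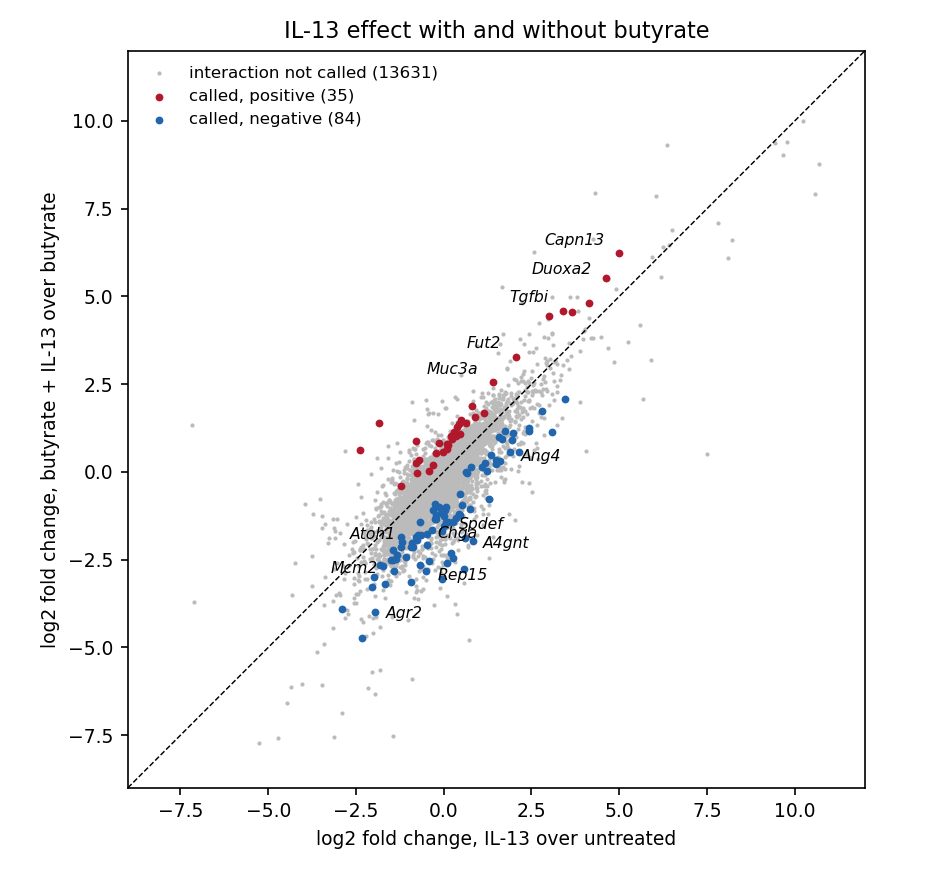
Each point is a gene, with the log2 fold change of IL-13 over untreated on the x axis and of butyrate + IL-13 over butyrate on the y axis, and the dashed line marks equal effects. Red and blue mark the 35 genes with a positive and the 84 with a negative called interaction. Tgfbi, Capn13 and Muc3a lie above the line, and Agr2, Spdef, Rep15 and A4gnt below it.

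Negative differences included several goblet genes. Of 36 tested, 8 had a negative interaction (0.611% over all genes) and 2 a positive one (0.255%), and 7 members kept their call under every alternative. Agr2 fell in both settings, by 1.95 (SE 0.16) without butyrate and by 3.98 with it, a difference of -2.03 ± 0.24 (adjusted p = 0.00051). In the libraries without butyrate it went from 137, 170 and 195 CPM untreated to 38.3, 44.1 and 47.4 CPM with IL-13, so that the libraries with both agents, at 6.14 to 12.02 CPM, were the lowest of the series. Spdef was at 30.7, 46.3 and 52.4 CPM untreated and 48.8, 42.2 and 45.1 CPM with IL-13, with overlapping groups (0.07 ± 0.16, adjusted p = 0.73), whereas under butyrate it fell, and the difference was -1.51 ± 0.24 (adjusted p = 0.0049). Atoh1 fell by 0.65 (SE 0.12) without butyrate, a difference of -1.15 ± 0.18 (adjusted p = 0.0052). Rep15, a RAB15 effector gene, was at 18.3 to 28.9 CPM untreated and 14.8 to 20.9 CPM with IL-13, and fell under butyrate from 20.8, 19.5 and 19.0 to 4.11, 3.27 and 2.78 CPM, a difference of -2.13 ± 0.26 (adjusted p = 0.00065). A4gnt, a glycosyltransferase gene of gland-type mucins, rose without butyrate (0.83 ± 0.25, adjusted p = 0.014, and adjusted p = 0.073 without untreated replicate 1) and fell with it (-1.98 ± 0.38, adjusted p = 0.00034), a difference of -2.81 ± 0.46 (adjusted p = 0.0059). The antimicrobial gene Ang4 rose in both settings but by less with butyrate, 0.56 against 1.90 (SE 0.15), a difference of -1.34 ± 0.21 (adjusted p = 0.0052). It stood at 450 to 624 CPM untreated and 1692 to 2385 CPM with IL-13 alone. Both goblet members with a positive difference, Fut2 and Klf4, rose more with butyrate. The difference was 1.21 ± 0.23 for Fut2 (adjusted p = 0.014), which was not called without untreated replicate 2 (adjusted p = 0.052). For Klf4 it was 0.68 ± 0.14 (adjusted p = 0.021), which was not called without butyrate replicate 1, IL-13 replicate 1 or 2, untreated replicate 2 or 3, or both Lars2-high libraries (adjusted p up to 0.077).

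The enteroendocrine list had 7 members higher and 2 lower with IL-13 without butyrate (median 0.14), where 21.8% of all genes were higher and 21.7% lower, beside the 2 higher and 20 lower under butyrate. The interaction was negative in 5 of 37. Chga was at 128, 175 and 165 CPM untreated and 160, 146 and 138 CPM with IL-13 (-0.08 ± 0.14, adjusted p = 0.69), and the difference from its fall under butyrate was -1.10 ± 0.21 (adjusted p = 0.015), which was not called without butyrate replicate 1 (adjusted p = 0.056) or IL-13 replicate 1 (0.052). None of the 5 kept its call under every alternative. The ion channel subunit gene Cacna2d1 and the signalling regulator gene Rgs4 fell under butyrate, at 2.89, 3.07 and 2.04 against 0.791, 0.159 and 0.512 CPM for Cacna2d1 and 2.27, 3.90 and 2.83 against 1.11, 0.319 and 0.951 CPM for Rgs4. Without butyrate their log2 differences were 0.27 ± 0.26 and 0.61 ± 0.28 (adjusted p = 0.43 and 0.087), and the interactions were -2.71 ± 0.47 (adjusted p = 0.0089) and -2.51 ± 0.47 (adjusted p = 0.014).

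**Figure D5:**
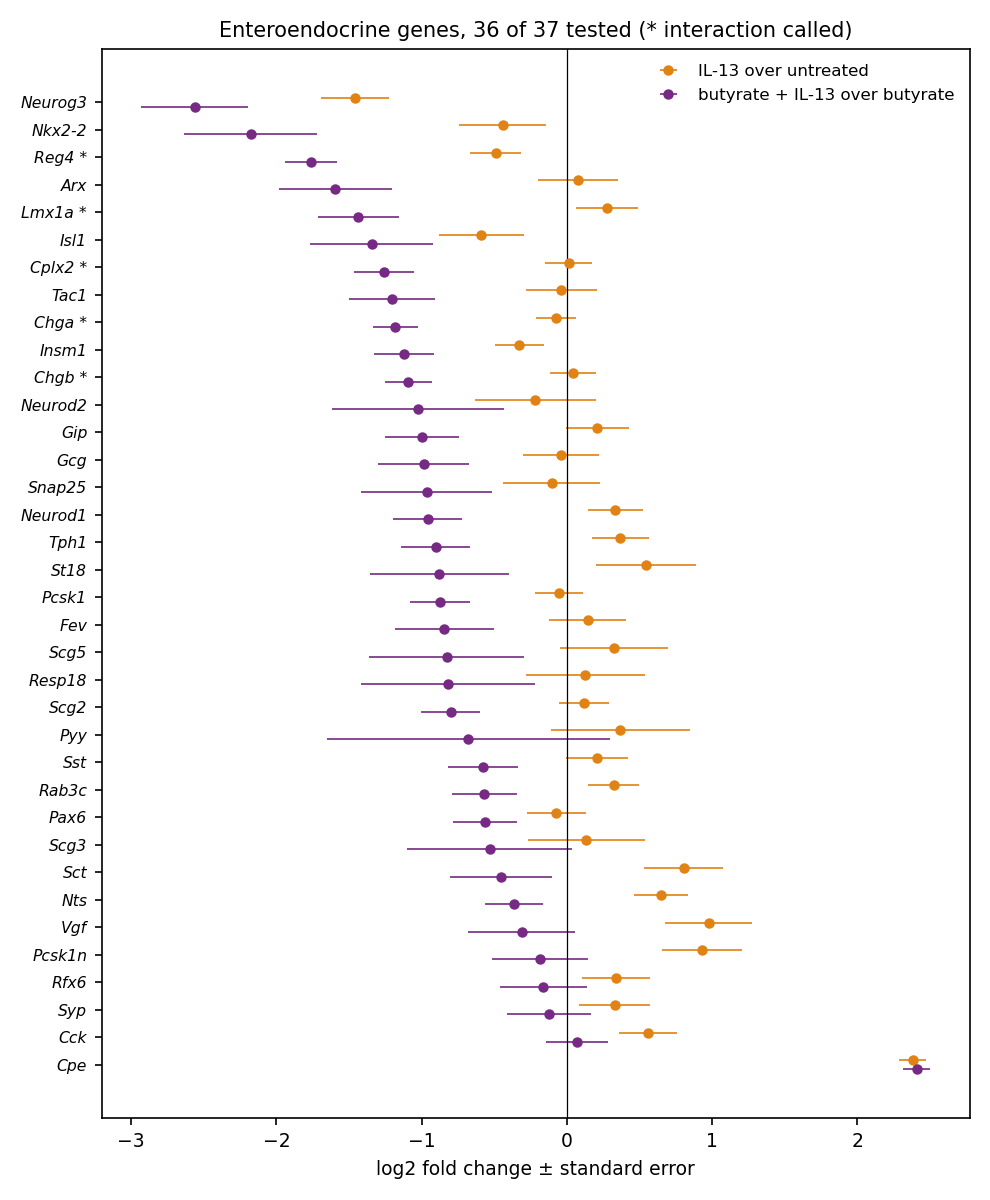
Log2 fold changes ± standard error (x axis) of 36 of the 37 tested enteroendocrine genes (y axis), for IL-13 over untreated in orange and butyrate + IL-13 over butyrate in purple, from the same fit of 12 libraries. Asterisks mark the 5 genes with a called interaction. Purple points lie mostly below 0 and to the left of the orange ones, and Cpe rises in both.

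Replication genes fell in both settings, all 33 of them, with medians of -1.43 without and -1.91 with butyrate, and 6 had a negative interaction. Mcm2 alone kept its call under every alternative: it fell by 1.46 (SE 0.12) without butyrate, from 90.4, 92.4 and 95.5 to 29.2, 33.7 and 38.5 CPM, and the difference was -1.06 ± 0.17 (adjusted p = 0.0059). The mitosis list fell whole in both settings (medians -1.26 and -1.60), with no interaction called.

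Of the 35 positive differences, 17 were in genes called higher in both settings, 9 in genes called higher with butyrate and not called without, 5 in genes called lower without butyrate and not called with it, 3 in genes with opposite calls and 1 in a gene called lower in both. The genes named here are among the 17. Tgfbi rose by 3.41 ± 0.09 without butyrate, from 47.9 to 51.1 CPM up to 485 to 547 CPM, and the difference was 1.19 ± 0.11 (adjusted p = 6.3e-05). Capn13 (5.00 ± 0.12 without butyrate, difference 1.23 ± 0.19, adjusted p = 0.0048), Duoxa2 (4.63 ± 0.12, difference 0.90 ± 0.15, adjusted p = 0.0073), Muc3a, a membrane mucin gene (1.40 ± 0.14, difference 1.17 ± 0.20, adjusted p = 0.0089), and Abat, the GABA transaminase gene (0.80 ± 0.14, difference 1.09 ± 0.19, adjusted p = 0.0089), had the same course. The gasdermin C genes and Pla2g4c did not: their differences were -0.37 ± 0.50 for Gsdmc2, -0.64 ± 0.45 for Gsdmc4 and -0.09 ± 0.46 for Pla2g4c (adjusted p = 0.89, 0.71 and 0.98), which does not show that the effects were equal. Tuft genes were higher in 22 and lower in 3 of 34 without butyrate (median 1.55), against 21.8% and 21.7% over all genes, and no interaction was called among them.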

How the data were processed

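The deposited table holds raw read counts per gene for all 12 libraries, made by the authors from directional poly(A) libraries (per the labels' protocols) on the mm10 build (per the submitters' processing notes). For the aligner, the counting tool and its use of strand: not given in the sources used here. Its p-values and log2 fold changes are the authors' deposited DESeq comparison of untreated with IL-13 (per the file headers) and were not used here. Each of its 18092 rows has a count in an untreated or IL-13 library, so the table cannot show a gene detected solely in libraries with butyrate. Rows of the same gene were summed to 18068 genes, and 98.4% of rows matched the reference annotation by identifier. No per-sample column was left unmapped.

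All 12 libraries (13867982 to 24294456 counts) were fitted together with edgeR 4.0.16 (R 4.3.3): TMM scaling, filterByExpr, a robust quasi-likelihood fit with a coefficient for each of the 4 groups and 8 residual degrees of freedom, and contrasts for IL-13 under butyrate, IL-13 without butyrate and their difference (interaction). Of the genes 13750 were tested and 4318 removed as too low, and the biological coefficient of variation was 10.2%. A call is a Benjamini-Hochberg adjusted p (two-sided, over all genes tested) under 0.05. Standard errors are the log2 fold change over the square root of F, and they can be too small for genes with few counts in a group. CPM are counts over TMM-scaled library sizes and are not per gene length. Where a whole group had no count, folds use a floor of 3 counts, and 95% intervals are exact binomial. The method was tested on simulated data with far fewer changed genes than here, which does not test the scaling of these libraries.

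Named genes were the 15 with the largest change per direction (mean of at least 50 counts in the 6 libraries, groups not overlapping), the 6 of smallest p in each of 43 lists, the 8 largest interactions per direction and a fixed list, and the text gives some of these. Some genes are not reported here, although list counts include them. Members and lists were chosen with earlier results of these data known. Alternatives were RLE scaling, DESeq2 1.42.0, other filters, fits of the groups compared alone, a replicate block, thinned libraries and leaving out libraries. Whether replicate numbers pair the samples is not known. Between the 2 groups compared, correlations of same-numbered deviations were -0.151 to 0.0739 and those of differently numbered ones -0.215 to 0.168. With 3 libraries per group these values cannot exclude a shared origin.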

Additional observations from a re-analysis of the deposited data

Results flagged for a closer look

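The IL-13 effect differed between enteroids with and without butyrate in the genes below, by the interaction test on all 12 libraries; each value is the log2 effect with butyrate minus that without. The positive differences were 1.23 for Capn13, 1.21 for Fut2, 1.19 for Tgfbi, 1.17 for Muc3a, 1.09 for Abat, 0.90 for Duoxa2 and 0.68 for Klf4. The negative ones were -2.81 for A4gnt, -2.71 for Cacna2d1, -2.51 for Rgs4, -2.13 for Rep15, -2.03 for Agr2, -1.51 for Spdef, -1.34 for Ang4, -1.15 for Atoh1, -1.10 for Chga and -1.06 for Mcm2. The call held under every alternative run for each of these but Fut2 and Klf4, whose exceptions are given above, and Chga, which was not called without butyrate replicate 1 (adjusted p = 0.056) or without IL-13 replicate 1 (adjusted p = 0.052).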

How the results depend on the processing

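The count of genes that IL-13 changed under butyrate, 6564, stayed within 1.5 times under every alternative run: 6559 with RLE scaling, 6642 with DESeq2, 6453 without a filter, 6048 at a mean of 50 counts, 5332 in a fit of the 6 libraries alone, 6452 with thinned libraries, 5692 without both Lars2-high libraries, and 5586 to 6632 without single libraries (2687 to 3265 higher, 2753 to 3367 lower). With the replicate number as a block it was 6447. Whether the numbers pair the samples is not known, and the block moved no count of all genes by over 1.5 times, with 114 interactions called. For IL-13 without butyrate 4923 to 5199 genes were called without single libraries (2487 to 2642 higher, 2436 to 2557 lower), against 5977. It was 7160 in a fit of the 6 libraries compared and 6672 without both Lars2-high libraries, above the counts under butyrate in these settings, while under RLE scaling, DESeq2, the other filters, thinning and the block it was below them. The interaction count, 119 (35 positive, 84 negative), moved most: 255 with DESeq2 (109 and 146), and 55 to 213 without single libraries (16 to 81 positive, 36 to 132 negative), and the cause was not tested. No call of a named gene reversed its direction under the alternatives. Among the genes named, 18 of the comparisons with the effect under butyrate lost and 3 gained their call, each in the genes given in the report or in Irf7. Depth limits genes near silence under butyrate, such as Gsdmc2 and Slc28a1, whose folds rest on few counts.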
